A study of Cricetulus griseus with 9 samples.

Results

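Cav1, Cav2 and Ptrf, the genes described here, encode structural proteins of caveolae, the small flask-shaped pits of the plasma membrane. They are 3 of the 15557 genes in the expression table, were chosen as the caveolae genes by their mouse Ensembl identifiers, and all 3 had a row. The set was chosen by its members' shared role and with their FPKM in these 9 libraries in view, the change from anti-miR-29a included, so those changes are given below as a description, without a test. The identifiers are ENSMUSG00000007655 for Cav1, ENSMUSG00000000058 for Cav2 and ENSMUSG00000004044 for Ptrf. The names are those that came with the choice of genes, since the deposited files do not pair identifiers with names.

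Caveolin-1, the product of Cav1, is the membrane-inserted coat protein without which caveolae do not form in most cells. Caveolin-2, from Cav2, is its partner: it is built into hetero-oligomers with caveolin-1 and depends on it to leave the Golgi and to be stable. Ptrf, now named Cavin1, encodes the cytosolic coat protein that joins caveolin-1 at the plasma membrane and is also needed for caveolae to form. Caveolae are known for buffering membrane tension and for organising signalling receptors, and fibroblasts, endothelial cells, muscle and adipocytes are rich in them.

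The libraries hold poly(A) RNA of CHO-K1 cells, a subclone of a line from Chinese hamster ovary, and lipid transfection preceded RNA isolation by 48 h. All 9 libraries came from the same line, kept in medium with charcoal-stripped serum, and received either anti-miR-29a or 1 of the pre-miRs, pre-miR-29a and pre-miR-29b-1, with 3 libraries for each molecule. Each pre-miR is a synthetic precursor that supplies its microRNA to the cell, whereas anti-miR-29a is an inhibitor and, per the series text, blocks miR-29a and miR-29b-1 alike. Untreated cells and cells with a control RNA were not analysed here, so a lower level with a pre-miR and a higher level with the anti-miR cannot be told apart. The series text speaks of separate transfection experiments without saying whether each held all molecules. If each held 1 molecule, experiment and group cannot be told apart. Separate cultures per library are not stated beyond growth in triplicate, and p-values here cover the variation among these libraries, which could be technical in part. The microRNAs themselves are not part of the table, and the labels state that they were checked by quantitative PCR.

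Levels are FPKM, fragments per kilobase of gene model with a scaling per library, as deposited by the authors. The low values came in steps of 1 read, which put the scaling at 15880000 to 21850000 implied reads per library. How libraries were scaled is not stated, so these numbers may differ from the sequenced depth. On the assembly CriGri_1.0, Cav2 and Cav1 are neighbours on scaffold JH000231, both on the plus strand. Cav2 lies at 617270 to 622497 with 3 coding exons, and Cav1 at 642145 to 670711 with 2 coding exons. No other gene model lies in the 19647 bases between them, and RefSeq's annotation of another hamster assembly also has Cav1 and Cav2 as direct neighbours. Ptrf lies on scaffold JH000499 at 623616 to 635161, with 2 coding exons read from the minus strand. Its models are 2 identical copies of one alignment. The models hold coding sequence only, 513 bases for Cav1, 489 for Cav2 and 1176 for Ptrf, and none shares exon bases with another gene.

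Cav1 was the most abundant of the caveolae genes. Its level was 1190, 1090 and 1198 FPKM in the anti-miR-29a libraries. With pre-miR-29b-1 it was 438.1, 464.6 and 472.1 FPKM, and with pre-miR-29a it was 413.6, 368.6 and 394.4 FPKM. Every pre-miR library lay far below every anti-miR-29a library, and the pre-miR groups stood apart from each other by a small margin. Group means were 1159 ± 60.4 FPKM with anti-miR-29a, 458.3 ± 17.9 FPKM with pre-miR-29b-1 and 392.2 ± 22.6 FPKM with pre-miR-29a (SD, n = 3 each). Cav1 thus stood at 39.5% of its anti-miR-29a level with pre-miR-29b-1, against 33.8% with pre-miR-29a. In the order of all 15557 genes by level, it held places 141 to 167 with anti-miR-29a and 381 to 569 with the pre-miRs. The fewest implied reads behind any of these values were 2150, in pre-miR-29a replicate 3.

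Cav2, the neighbour and partner of Cav1, was lower with the pre-miRs by much less. It measured 102.6, 88.1 and 87.5 FPKM with anti-miR-29a. The pre-miR-29b-1 libraries held 68.6, 67.2 and 71.3 FPKM, and the pre-miR-29a libraries 70.7, 71.0 and 75.7 FPKM. Here too no pre-miR library reached the anti-miR-29a range, although the gap was narrow next to that of Cav1. The means were 92.7 ± 8.54 FPKM with anti-miR-29a, 69.0 ± 2.09 FPKM with pre-miR-29b-1 and 72.4 ± 2.82 FPKM with pre-miR-29a (SD, n = 3 each). Cav2 therefore stood at 74.5% of its anti-miR-29a level with pre-miR-29b-1, against 78.2% with pre-miR-29a. Its values rested on 380 to 535 implied reads per library.

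Ptrf, the cavin gene, was the least abundant and the least even. It stood at 68.1, 44.7 and 46.5 FPKM with anti-miR-29a. With pre-miR-29b-1 it was 46.1, 30.2 and 26.3 FPKM, and with pre-miR-29a it was 24.1, 18.9 and 13.9 FPKM. The pre-miR-29a libraries lay below all others, while 1 pre-miR-29b-1 library, replicate 1, fell within the anti-miR-29a range. Means were 53.1 ± 13.04 FPKM with anti-miR-29a, 34.2 ± 10.5 FPKM with pre-miR-29b-1 and 19.0 ± 5.09 FPKM with pre-miR-29a (SD, n = 3 each). These put Ptrf at 64.3% of its anti-miR-29a level with pre-miR-29b-1, against 35.7% with pre-miR-29a.

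**Figure D1:**
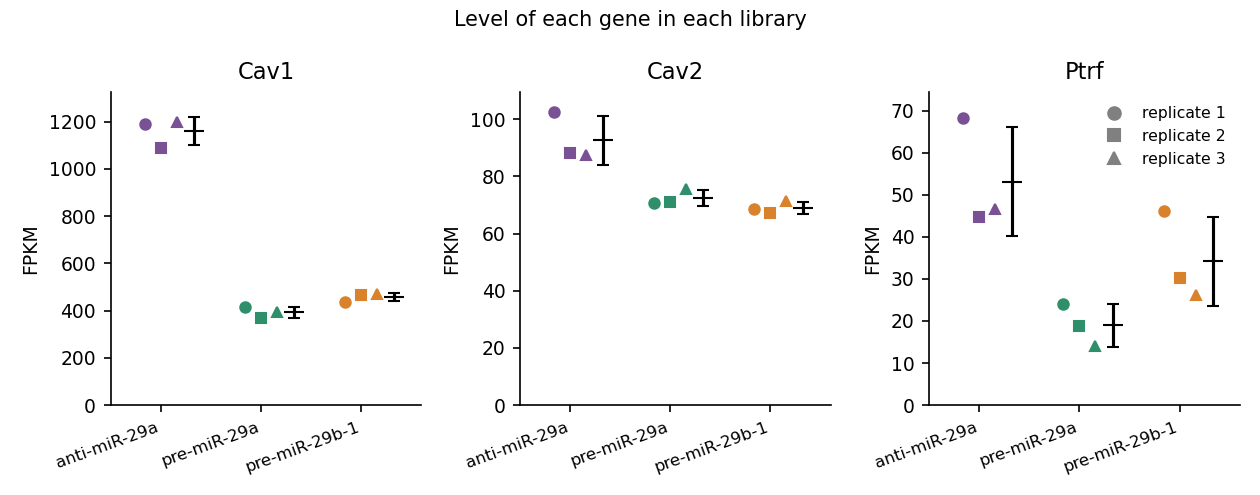
FPKM of Cav1, Cav2 and Ptrf (vertical axes, linear and from 0) in each of the 9 libraries, by transfected molecule. Symbols mark the replicate number, and bars beside them give the mean and SD of 3 libraries; Cav1 and Cav2 libraries of the pre-miRs sit below all anti-miR-29a libraries, whereas Ptrf overlaps between pre-miR-29b-1 (26.3 to 46.1 FPKM) and anti-miR-29a (44.7 to 68.1 FPKM).

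The spread of Ptrf within groups was larger than counting reads would give. Its coefficient of variation was 24.5% to 30.8% over the groups, while its 237 to 1200 implied reads per library allow for 3.39% to 5.51% from counting alone. The within-group SD of Ptrf on the log2 scale was 0.37, against a median of 0.093 over the 9504 genes tested below (those averaging 1 FPKM or more), and 97.8% of those genes had a smaller SD. Cav1 and Cav2, at 0.073 and 0.084, were below that median. In each group the replicate 1 library had the highest Ptrf value. The same held for 12.2% of the tested genes but for neither Cav1 nor Cav2.

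The order of levels was Cav1, then Cav2, then Ptrf in all 9 libraries, and no group's libraries overlapped between neighbours in that order. Cav1 was 12.6 ± 1.06 times the level of Cav2 with anti-miR-29a (SD, n = 3), with 11.6, 12.4 and 13.7 in the libraries. With pre-miR-29b-1 the ratio was 6.64 ± 0.26, while pre-miR-29a gave 5.42 ± 0.37. Its highest value among the pre-miR libraries was 6.91, so the groups did not overlap. Cav2 was 1.78 ± 0.25 times the level of Ptrf with anti-miR-29a, 2.14 ± 0.62 times with pre-miR-29b-1 and 4.04 ± 1.27 times with pre-miR-29a. The lead of Cav1 over Cav2 was thus smaller with the pre-miRs, and that of Cav2 over Ptrf was widest with pre-miR-29a. These ratios depend on how length enters FPKM. In genes of at least 600 bases, the deposited values divide reads by the coding length less about 200 bases, which raises short models. Cav1 and Cav2 are shorter than that, so the same offset, and the values below, are approximate for them. Divided by the whole coding length, Cav1 would be 16.04 times the level of Ptrf with anti-miR-29a in place of 21.8 times, and Cav2 1.24 times in place of 1.74, as ratios of group means. Ratios between groups for 1 gene do not depend on it.

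**Figure D2:**
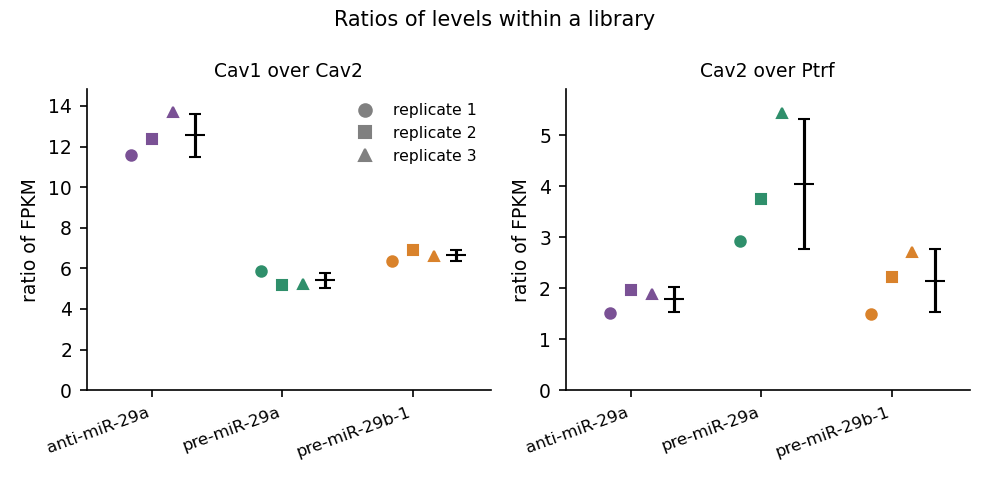
Ratio of FPKM between caveolae genes within each library (vertical axes, linear and from 0), for Cav1 over Cav2 and for Cav2 over Ptrf, by transfected molecule. Symbols mark the replicate number, and bars give the mean and SD of 3 libraries; Cav1 over Cav2 is 11.6 to 13.7 with anti-miR-29a and 5.19 to 6.91 with the pre-miRs.

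On the log2(FPKM + 1) scale the differences were set against all 9504 tested genes, using limma, a linear model with variances moderated across genes. All 3 caveolae genes passed the filter, an average of 1 FPKM or more. Pre-miR-29b-1 less anti-miR-29a gave a log2 difference of -1.34 (SE 0.062) for Cav1, -0.42 (SE 0.066) for Cav2 and -0.64 (SE 0.24) for Ptrf. Pre-miR-29a less anti-miR-29a gave -1.56 (SE 0.062) for Cav1, -0.35 (SE 0.066) for Cav2 and -1.44 (SE 0.24) for Ptrf. The anti-miR-29a libraries are common to both comparisons. Cav1 had the lowest value and Cav2 the one nearest to 0 in both, and Ptrf had the largest SE in each.

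The median log2 difference of the caveolae genes was -0.64 with pre-miR-29b-1, where that of all tested genes was -0.006. It was -1.44 with pre-miR-29a, where that of all tested genes was -0.016. With both pre-miRs averaged and set against anti-miR-29a, 1.18% of tested genes had a lower value than Cav1, at -1.45 (SE 0.054). For Ptrf, at -1.04 (SE 0.21), the share was 3.52%, and for Cav2, at -0.38 (SE 0.057), it was 19.3%. Cav2 therefore lies within the common range of change in these libraries, where 29.2% of all tested genes had every pre-miR library below every anti-miR-29a library.

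Lower without overlap with pre-miR-29b-1 were 2 of the 3 caveolae genes, Cav1 and Cav2, where the background was 35.2% of tested genes. With pre-miR-29a it was all 3, where the background was 33.1%. At least 2-fold lower were Cav1 alone with pre-miR-29b-1 (background 3.62%) and Cav1 and Ptrf with pre-miR-29a (background 4.5%). With the mean of both pre-miRs, Cav1 and Ptrf were at least 2-fold lower (background 3.99%). Cav1 and Cav2 were lower in all 6 pre-miR libraries than in any anti-miR-29a library (background 29.2%). Ptrf only just reached 2-fold in the mean of both pre-miRs. Its difference of -1.04 came to -0.93 with a pseudocount of 5, -0.95 with quantile normalization, -0.96 without pre-miR-29b-1 replicate 3, -0.85 without anti-miR-29a replicate 1 and -0.94 without pre-miR-29a replicate 3, which left Cav1 as the 1 gene at least 2-fold lower in these 5 settings. Ptrf also overlapped through single libraries: with pre-miR-29b-1, 3 of the 3 genes were lower without overlap once pre-miR-29b-1 replicate 1 was left out (background then 37.9%) or anti-miR-29a replicate 2 was left out (background then 38.4%). Since the genes were proposed with these values known, nothing is read from these counts. In RNA from a whole culture, a lower level in every cell and a loss from some cells cannot be told apart.

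**Figure D3:**
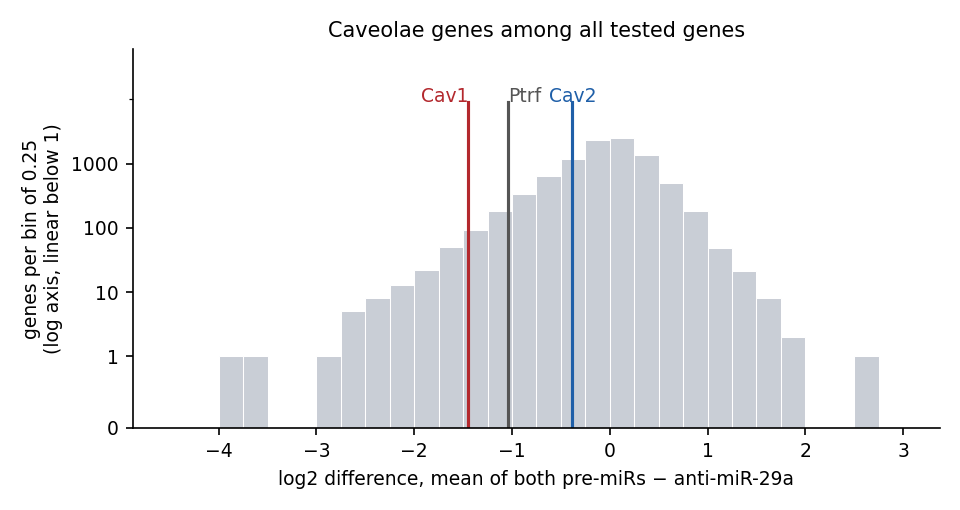
Number of tested genes (vertical axis, logarithmic above 1 and linear below) by log2 difference between the mean of both pre-miRs and anti-miR-29a (horizontal axis, bins of 0.25), for all 9504 tested genes. Lines mark the caveolae genes: Cav1 at -1.45 and Ptrf at -1.04 lie in the lower tail, and Cav2 at -0.38 lies in the body of the distribution.

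Whether the precursors of the microRNAs differ in their effect on caveolae genes was tested on the difference between the pre-miR groups, which does not involve the anti-miR-29a level. The pre-miR values were also in view when the genes were chosen, so the p-values below are not independent of that choice. Cav1 was 1.17 times as high with pre-miR-29b-1 as with pre-miR-29a, and its libraries did not overlap. Ptrf was 1.80 times as high, also without overlap, and Cav2 stood at 0.953 times, with overlapping libraries. Without overlap in either direction were 2 of the 3 genes, where the background was 18.9% of tested genes.

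With equal library weights and no replicate term, none of these differences passed the threshold of 0.05 after Benjamini-Hochberg adjustment over all tested genes. For Cav1 the log2 difference was 0.22 (SE 0.062, 95% interval 0.085 to 0.36) with an adjusted p of 0.22 (limma). For Ptrf it was 0.81 (SE 0.24, interval 0.26 to 1.35) with an adjusted p of 0.223 (limma), and for Cav2 -0.07 (SE 0.066, interval -0.22 to 0.079) with an adjusted p of 0.6 (limma). As ratios, the intervals run from 1.06 to 1.29 for Cav1, from 1.20 to 2.55 for Ptrf and from 0.861 to 1.06 for Cav2. They are per gene and, unlike the adjusted p, take no account of the number of genes tested. The unadjusted p was 0.00498 for Cav1, 0.00794 for Ptrf and 0.325 for Cav2 (limma), so 2 of the 3 genes, and 1570 of the 9504 tested, lay under an unadjusted 0.05. The test called 1 gene in all, a background of 0.0105%. A test on the implied reads (limma voom), added after seeing the data, likewise called 0 of the 3, with an adjusted p of 0.108 for both Cav1 and Ptrf. With libraries weighted by their spread (array weights), Cav1 passed at 0.24 (adjusted p 0.00382, limma) and Ptrf at 1.02 (adjusted p 0.00359, limma), as did 38.2% of all tested genes. Without pre-miR-29a replicate 1, Cav1 and Ptrf also passed, at 0.26 (adjusted p 0.0327, limma) and 0.99 (adjusted p 0.0411, limma), as did 14.4% of all tested genes. The adjusted p without any other single library was 0.216 to 0.581 for Cav1 and 0.215 to 0.596 for Ptrf (limma). With the replicate number as a block, Ptrf passed at 0.81 (adjusted p 0.00652, limma), whereas Cav1 did not (adjusted p 0.0974, limma). That setting called 1.94% of all tested genes. The labels do not say whether a replicate number links libraries across groups.

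**Figure D4:**
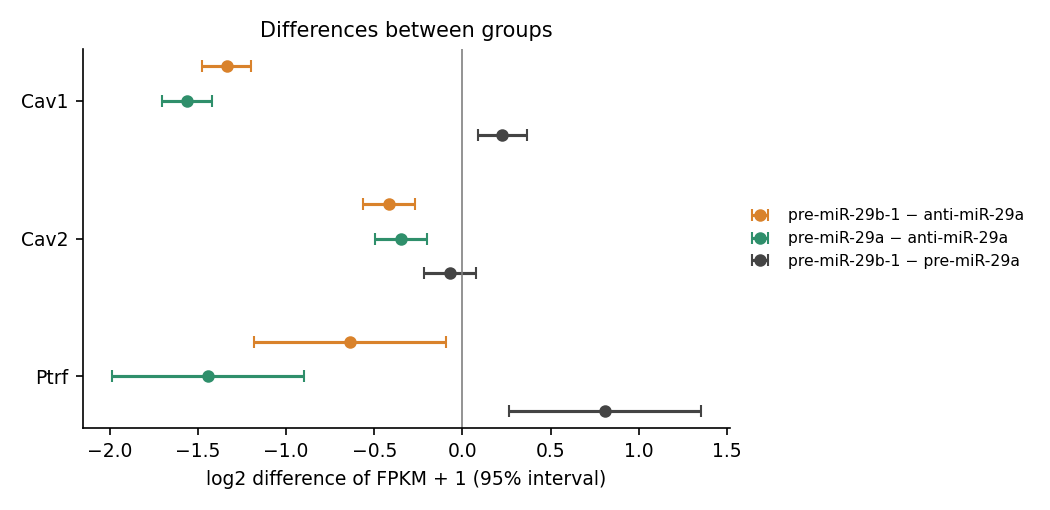
Log2 differences of FPKM + 1 between groups for each caveolae gene (horizontal axis), with points for the limma estimates and bars for their 95% intervals. Cav1 is near -1.34 and -1.56 against anti-miR-29a with narrow intervals, Ptrf has the widest intervals, and the interval between the pre-miRs spans 0 only for Cav2. The intervals are per gene and not adjusted for the number of genes tested. After that adjustment, no difference between the pre-miRs passed in this fit.

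Cav1 and Cav2 share a short stretch of genome, so the other genes of their scaffold were read as well. The scaffold held 11 genes of the table, of which 5 besides Cav1 and Cav2 were among those tested. Their log2 differences between the mean of both pre-miRs and anti-miR-29a ran from -0.24 to 0.26, with a median of -0.13. The nearest tested genes on either side stood at -0.24 and -0.22, with midpoints 243.5 kb before and 199.4 kb after that of Cav1. Cav2, at -0.38, was closer to these flanking genes than to Cav1, whose midpoint is 36.5 kb away. Around Ptrf, 40 other tested genes of the scaffold ranged from -1.63 to 1.16 with a median of 0.15. Of these 40, 4 were at least 2-fold lower, where the background was 3.99% of all tested genes. The nearest tested genes on either side of Ptrf stood at -1.18, below the -1.04 of Ptrf itself, and at -0.31, with midpoints 76.1 kb before and 63.5 kb after that of Ptrf.

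**Figure D5:**
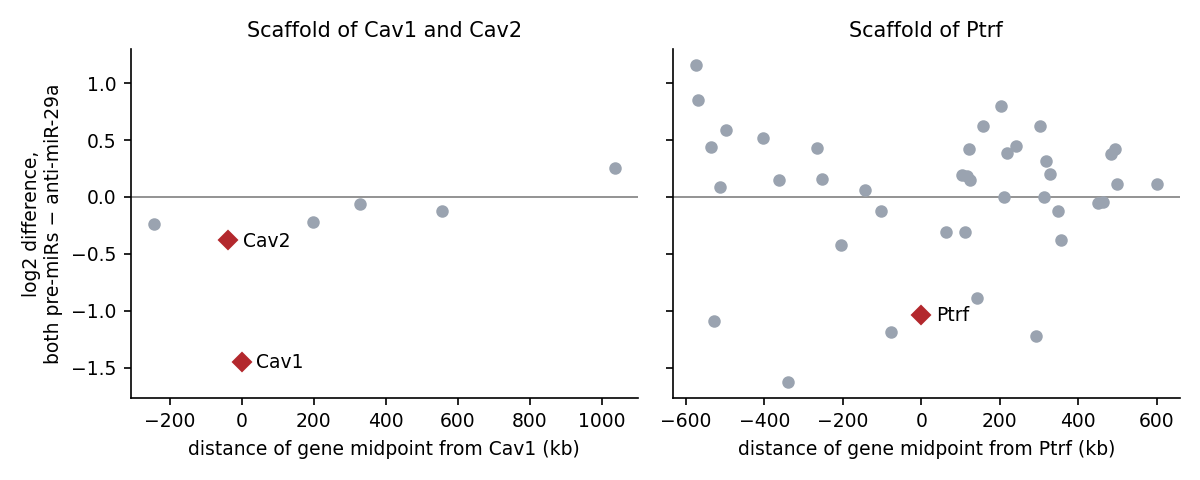
Log2 difference between the mean of both pre-miRs and anti-miR-29a (vertical axis) for tested genes on the scaffolds of Cav1 and Cav2 and of Ptrf, by distance of the gene's midpoint from Cav1 or Ptrf in kilobases (horizontal axis). Diamonds mark the caveolae genes and circles the others; Cav1 at -1.45 stands apart from the 5 other genes of its scaffold, which lie between -0.24 and 0.26.

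The genes whose pattern over the 9 libraries was most like that of Cav2 were sought among 8617 other genes that averaged 5 FPKM or more, by the root mean square difference of centred log2(FPKM + 1) values. The closest was ENSMUSG00000070934, with a difference of 0.054, at 109.0 ± 4.64 FPKM with pre-miR-29b-1, 110.1 ± 6.57 FPKM with pre-miR-29a and 143.7 ± 6.54 FPKM with anti-miR-29a (SD, n = 3 each). Next came ENSMUSG00000036099, also at 0.054, at 31.0 ± 0.75, 31.8 ± 1.12 and 42.8 ± 2.10 FPKM in the same groups. The median over all genes compared was 0.24. The 9 libraries share 3 treatments, so likeness over them includes the difference between groups, and nothing is read from it about shared function.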

How the data were processed

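FPKM per gene and library were deposited by the authors as 1 table of 15557 rows. FastQC, TopHat2 2.0.13 and Cuffnorm made them, per the submitters' processing notes, and library scaling and strand setting are not stated there. Gene models are mouse Ensembl release 66 proteins aligned to CriGri_1.0, per the file headers. Other deposited values, exon starts and ends, gave coding lengths, per the file headers.

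FPKM times coding length less 200 bases came in whole reads: in single-model genes of at least 600 bases, 99.79% to 99.93% of the values that came to 20 reads or fewer were whole within 0.1. The offset was carried over to the shorter Cav1 and Cav2, whose reads are therefore approximate.

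limma 3.58.1 (R 4.3.3) was fitted to log2(FPKM + 1) in all 9 libraries, 1 term per group, with a variance trend, over the 9504 genes averaging 1 FPKM or more. Fold changes on that scale understate those of low genes. Tests were two-sided. The fit was tested on simulated data. The rule for named genes took the members and the 2 genes most like Cav2. Members, lists and tests were chosen with earlier results of these data known. A list of 16 other caveolar and flanking genes could not be used, as 0 identifiers of the table matched the 32251 genes of RefSeq assembly CriGri-PICRH-1.0. For the same reason markers of the cell line were not checked. Alternatives are described in the closing section.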

Additional observations from a re-analysis of the deposited data

How the results depend on the processing

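No caveolae gene changed direction in any comparison under the alternatives run: pseudocounts of 0.1 and 5, no filter or one at 5 FPKM, median of ratios and quantile scaling, variances without a trend, array weights, only the groups compared, the replicate block, voom on implied reads, and each library left out. Against anti-miR-29a, differences moved by less than the spread between libraries, except Cav1 with pre-miR-29b-1, -1.24 with quantile normalization in place of -1.34, and Cav2 with pre-miR-29a, -0.26 with array weights in place of -0.35. Leaving out 1 library gave -1.38 to -1.30 for Cav1, -0.46 to -0.34 for Cav2 and -0.87 to -0.45 for Ptrf with pre-miR-29b-1, and -1.61 to -1.52, -0.39 to -0.27 and -1.62 to -1.25 with pre-miR-29a. For both pre-miRs together it gave -1.49 to -1.42, -0.42 to -0.31 and -1.16 to -0.85. Genes lower without overlap numbered 2 to 3 of the 3 with pre-miR-29b-1 (22.2% to 38.4% of all genes over these settings), 2 to 3 with both pre-miRs (18.3% to 32%) and 3 with pre-miR-29a (21.1% to 38.6%). At least 2-fold lower were 1 to 2 with both pre-miRs (2.67% to 4.72% of all genes), 2 with pre-miR-29a (2.88% to 5.32%) and 1 for pre-miR-29b-1 (2.41% to 4.23%).

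Between the pre-miRs, 0 of the 3 genes passed, but 2 did with array weights, where Cav1 stood at 0.24 (adjusted p 0.00382, limma) and Ptrf at 1.02 (adjusted p 0.00359, limma), along with 38.2% of all tested genes. With 1 library left out, 0 to 2 passed, with 0.18 to 0.26 for Cav1, -0.09 to -0.04 for Cav2 and 0.58 to 0.99 for Ptrf. The 2, Cav1 and Ptrf, passed without pre-miR-29a replicate 1, where 14.4% of all tested genes passed. Without any other single library 0 of the 3 passed, beside 0.0105% of all tested genes. With the replicate number as a block, 1 passed: Ptrf, at 0.81 (adjusted p 0.00652, limma), as did 184 genes in all in place of 1. Deviations from the group means correlated between libraries of the same number at r of -0.02 to 0.29, over 0.1 in 6 of 9 pairs. For 9 of 9 libraries the mean r was higher with their own number than with others. The labels do not say whether a number links libraries across groups, and the main fit took no pairs. Whether the numbers are pairs was not tested. The cause of the changes in calls between settings was not tested either. Counting error was 1.26% to 2.08% for Cav1, 4.64% to 5.03% for Cav2 and 3.39% to 5.51% for Ptrf.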
